A study of Medicago truncatula with 14 samples.

Results

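NIN-only regions outside chromosome 6 are stretches of the Medicago truncatula genome where all 3 NIN immunoprecipitations, and none of 4 LSH1 immunoprecipitations, gave a peak. Peaks of the 7 lists sharing 1 bp or more were joined into merged regions. Regions were chosen by peak presence in these lists: a merged region was kept when it held a peak of every NIN list and of no LSH1 list and lay on chromosomes 1 to 5, 7 or 8. This gave 1445 of 148022 merged regions in the series, or 1.09% of the 132913 merged regions on these 7 chromosomes. Chromosome 6 held a further 272 such regions, and sequences off the 8 chromosomes held 1. Presence in the lists and chromosome are what the choice rests on and are therefore given as a description, with no test.

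The study sequenced immunoprecipitated chromatin (ChIP-seq) from hairy roots, which arise by transformation, of ecotype jemalong, cultivar Jester, to search for binding sites of both proteins. Roots expressing pLjUBI:GFP-NIN (3 replicates) or pLjUBI:GFP-LSH1 (4 replicates) were each set against as many control libraries, 14 libraries in all. All roots were 3 weeks old and were grown on modified Fahraeus medium with 0.5 mM NH4NO3 under non-symbiotic conditions. The labels give the controls the same overexpression genotype, while the protocol also names a pLjUBI:NLS-GFP control construct, and which material the control libraries came from is not given in the sources used here. Both proteins were driven by a Lotus japonicus ubiquitin promoter, so that the fusion could be present in root cells and at levels where the native gene is not active, and the roots carried no rhizobia. Whether replicates came from separate cultures is not stated in the labels, so tests over lists measure only how much these lists vary, and that variation may be technical.

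NIN (NODULE INCEPTION) is an RWP-RK transcription factor of legumes. It is induced when roots perceive rhizobia, is needed for infection and for the start of nodule organs, and is known to activate genes for NF-Y subunits, for the lateral-root regulator LBD16 and for CLE peptides that limit nodule number. It is related to the NIN-like proteins, which carry the transcriptional response to nitrate. LSH1 belongs to the ALOG family of plant transcriptional regulators and acts in nodule identity.

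The lists were very unequal. NIN replicates 1, 2 and 3 had 14021, 28825 and 84178 peaks, which covered 0.933%, 2.04% and 11.9% of the 7 chromosomes. The LSH1 lists held 18750 to 25127 peaks and covered 1.69 to 2.56%. NIN replicate 3 stood apart by its length and by its wide peaks, and, since membership requires it, the position results are also given for regions redrawn without it. Widths, places and single named members are given with it. The depth behind each list is unknown.

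The number of NIN-only regions depended on which lists were asked for. Of 2290 regions with peaks of NIN replicates 1 and 2 and no LSH1 peak, 63.1% also held a peak of replicate 3. Of 3827 regions with replicates 1 and 3, 37.8% held one of replicate 2, and of 9494 regions with replicates 2 and 3, 15.2% held one of replicate 1. Replicate 1, the shortest list, was thus the list that most regions lacked. Asking for only 2 lists gave 9483 regions without NIN replicate 1, 3809 without NIN replicate 2 and 2040 without NIN replicate 3.

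The rule has 2 edges, presence in every NIN list and absence from every LSH1 list. Just outside the first lay 11276 regions in exactly 2 NIN lists and no LSH1 list, and just outside the second lay 343 regions in all 3 NIN lists with a peak of at least 1 LSH1 list. The nearest members to an LSH1 peak were on chromosome 7 at 31619830 to 31620596, 5 bp away, on chromosome 2 at 19133023 to 19134723, 6 bp away, and on chromosome 3 at 24095856 to 24097549, 15 bp away. The regions left out for the smallest overlap shared 3 bp with LSH1 peaks (chromosome 3, 7439029 to 7440130), 16 bp (chromosome 8, 31740176 to 31742818) and 44 bp (chromosome 5, 34790168 to 34791554). Few members sat at this edge. The median distance to the nearest LSH1 peak was 6242 bp, and 84 members (5.81%) lay within 500 bp of one. Of the 343 regions left out for LSH1, 8 shared under 100 bp.

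Members differed widely in size. The narrowest was 225 bp wide, the median 1048 bp and the widest 13878 bp, and 281 members (19.4%) were over 2000 bp wide. Together they covered 1998 kb. Most were simple, with 1 peak of each list in 1129 members (78.1%). Over 1 peak of replicate 2 stood in 227 members, of replicate 1 in 82 and of replicate 3 in 57.

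Width came mainly from replicate 3. The peaks inside members had a median width of 273.5 bp in replicate 1, 317.5 bp in replicate 2 and 888.5 bp in replicate 3. The other peaks of the same lists that overlapped no LSH1 peak had medians of 243, 267 and 440 bp. Member peaks were wider in each of the 3 lists, by 30.5, 50.5 and 448.5 bp, a mean difference of 177 bp ± 236 (SD, n = 3). The two-sided exact sign-flip test over lists gave p = 0.25, which is the smallest that 8 sign patterns allow, so no difference over these 3 lists can pass 0.05. With regions redrawn without NIN replicate 3 the mean difference was 42 bp. A wide peak meets other peaks more easily, so width is not independent of the rule.

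**Figure D1:**
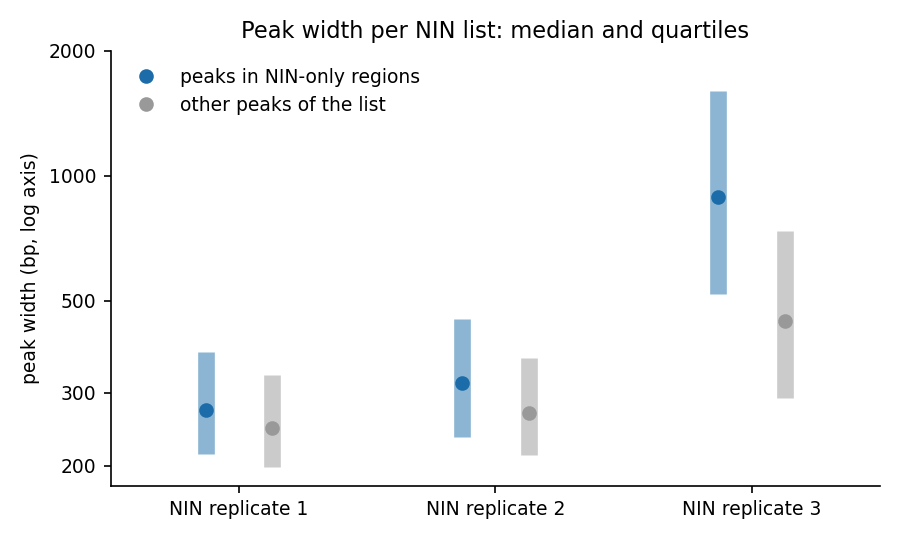
Width of peaks (bp, log axis) in NIN-only regions (blue) and of all other peaks of the same list on the 7 chromosomes (grey), for the 3 NIN lists. Points are medians and bars run from the lower to the upper quartile. Member peaks of replicate 3 have a median of 888.5 bp, against 273.5 and 317.5 bp in replicates 1 and 2.

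Not every member marks a place where the 3 lists met at one base. In 1070 members (74.0%) at least 1 base was common to peaks of all 3 lists, and in 375 (26.0%) none was. In 317 members (21.9%) the peaks of replicates 1 and 2 did not overlap each other, and all 317 were joined by a replicate 3 peak that overlapped both. In these the midpoints of the nearest replicate 1 and 2 peaks lay a median of 593.5 bp apart and the replicate 3 peak had a median width of 1530 bp. Where replicates 1 and 2 overlapped, in 1128 members, the midpoints were 101 bp apart and the replicate 3 peak was 786 bp wide. The longest stretch common to all lists, 726 bp, was in a region of 768 bp on chromosome 3 at 33284986 to 33285753. It was followed by 668 bp on chromosome 8 (8825670 to 8826808) and 647 bp on chromosome 5 (38773206 to 38774961).

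Along the wide replicate 3 peaks, the peaks of the other lists were spread close to evenly, with no test made. Midpoints that lay beyond the replicate 3 peak were counted in its outermost part on that side. Of 670 members whose replicate 3 peak was at least 1000 bp wide, the replicate 1 midpoint fell in the middle 20% of that peak in 21.3% of cases, and in the outermost 20% at either end in 18.7% and 19.4%. For replicate 2 these shares were 22.5%, 19.0% and 16.6%. An even spread would put 20% in each part.

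**Figure D2:**
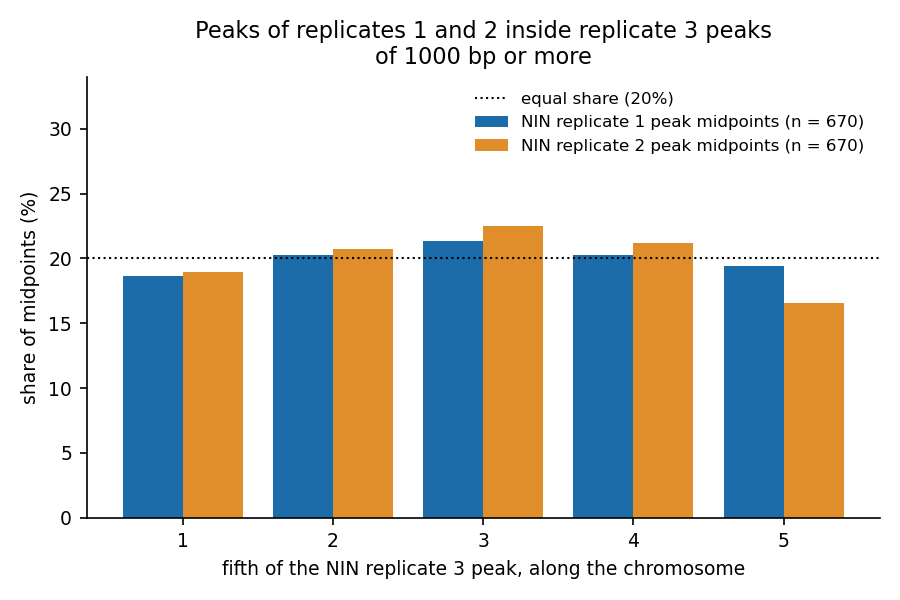
Share (%) of midpoints of NIN replicate 1 (blue) and replicate 2 (orange) peaks in each of 5 equal parts of the NIN replicate 3 peak they overlap, in the 670 members where that peak was 1000 bp or wider. Midpoints beyond the replicate 3 peak are counted in the end part on that side. The dotted line is an even share of 20%, and all bars lie between 16.6 and 22.5%.

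Each peak carries a running number that follows the order of its list, read here as a rank whose measure is unknown. Dividing it by the number of peaks in the list and multiplying by 100 gave a percentile place, with low values first. In members the place went with width at a Spearman rho of -0.60 in replicate 3, -0.21 in replicate 2 and -0.05 in replicate 1, across 1445 regions that are not independent replicates. The reading of the number as a rank thus has little backing from width in replicate 1.

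Members stood earlier in the lists than other NIN peaks. The median place of member peaks was 45.2% in replicate 1, 43.1% in replicate 2 and 24.2% in replicate 3, while the other peaks had medians of 51.6%, 51.2% and 51.3%. The difference had the same sign in 3 of 3 lists, with a mean of -13.9 points ± 11.5 (SD, n = 3; two-sided exact sign-flip test, p = 0.25). The first 20% of the list held 23.2% of member peaks in replicate 1, 27.5% in replicate 2 and 45.2% in replicate 3. In the last 20% were 18.5%, 16.4% and 10.2%. Most of the shift was thus in replicate 3, and with regions redrawn without NIN replicate 3 the mean difference was -7.02 points. In replicate 3 place went with width, and width is not independent of the rule. Place there may therefore not be independent of the rule either.

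**Figure D3:**
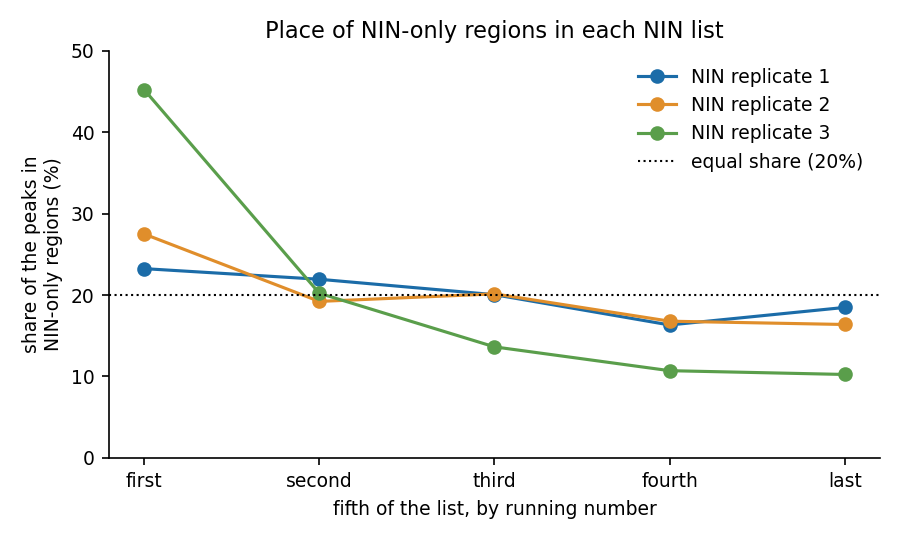
Share (%) of the peaks in NIN-only regions that lie in each of 5 equal parts of the list, ordered by running number, for NIN replicates 1 to 3. The dotted line is an even share of 20%, which replicate 3 exceeds in the first part with 45.2%.

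The lists agreed little on the order of members, apart from a few that were early in all 3. Spearman rho of place across the 1445 members was 0.10 between replicates 1 and 2, 0.07 between replicates 1 and 3 and 0.16 between replicates 2 and 3. A single member differed by a median of 47.7 points between its best and its worst list, and 679 members (47.0%) differed by over 50 points. Only 76 (5.26%) kept within 10 points. The first 50% of all 3 lists held 406 members (28.1%), and the first 10% of all 3 lists held 26 (1.80%), while 749 members (51.8%) were in the first 10% of no list.

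The 10 members with the lowest mean place include 1 inside or touching a coding gene. The first, on chromosome 3 at 33284986 to 33285753, was at 0.0927%, 0.0694% and 0.109% of lists 1 to 3. Its peaks were 739, 760 and 747 bp wide, nearly equal in the 3 lists, and it lay 6071 bp from the nearest coding gene, LOC25489229. Next came chromosome 5, 23498529 to 23498855, at 0.235%, 0.0937% and 0.0665%, a region that overlapped LOC112417792. The third, on chromosome 4 at 23627826 to 23629553, was at 0.271%, 1.27% and 0.355% and lay 18132 bp from LOC25483430. These were the members at under 1.5% of each list.

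The next 7 were less even. Chromosome 2 held 3 of them, at 23151311 to 23153873 (10874 bp from LOC25488323), at 21029120 to 21033843 (2923 bp from LOC25481081) and at 22827978 to 22829251 (25448 bp from LOC25481458). The last of these had no base common to the 3 lists, although its places were 2.40%, 1.85% and 0.766%. Chromosome 4 held 2, at 25641048 to 25642160 (18818 bp from LOC120579953) and at 20771836 to 20773574 (21771 bp from LOC112416582). The others were on chromosome 3 at 20111481 to 20112004 (4288 bp from LOC11426365) and on chromosome 7 at 3613106 to 3614042 (5410 bp from LOC11417842). Their mean places ran from 0.967 to 2.57% of the list. What these genes encode is not in the table used. The 1 member within 5000 bp of an annotated rRNA gene, left out of this ranking, had a mean place of 49.5% (chromosome 5, 27454396 to 27454870).

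The 5 widest members had narrow peaks in the other lists. The widest, on chromosome 4 at 23094416 to 23108293, was a single replicate 3 peak of 13878 bp over LOC25479520, with a replicate 1 peak of 308 bp and a replicate 2 peak of 392 bp within it. It stood at 0.310% of list 3 but at 56.7% and 47.1% of lists 1 and 2. The others were 9066 bp (chromosome 4, 25662812 to 25671877, over LOC120579953), 7200 bp (chromosome 3, 3638904 to 3646103, over LOC120579465), 6932 bp (chromosome 5, 26860108 to 26867039, 4461 bp from LOC11426767) and 6618 bp (chromosome 2, 31549273 to 31555890, over LOC112419406). In the second and the last of these 5 no base was common to all 3 lists.

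NIN-only regions lay away from coding genes. The gene table (RefSeq, assembly MtrunA17r5.0-ANR) has 29274 coding genes on the 7 chromosomes. Midpoints of 1006 members (69.6%) were over 2000 bp from any coding gene, where 45.7% of all bases lie. Inside a coding gene were 226 (15.6%), against 31.2% of bases. In a gene-end window, from 2000 bp outside to 500 bp inside either end of a gene, were 292 (20.2%), against 32.5% of bases. The median distance from the edge of a member to a coding gene was 3356 bp, with quartiles of 754 and 7758 bp. Redrawn without NIN replicate 3, the 2040 regions had 59.9% over 2000 bp from genes, 23.3% inside genes and 25.2% in gene-end windows, each nearer to the shares of all bases. Whole members touched a coding gene in 270 cases (18.7%), and 268 members (18.5%) were over 10000 bp from one.

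This position went with recurrence. The share over 2000 bp from genes was 54.3% in regions of 1 NIN list, 65.0% in regions of 2 lists and 69.6% in the members. Inside genes the shares were 26.6%, 18.1% and 15.6%. Width ran the same way, with median region widths of 352, 714 and 1048 bp, and its part in the order was not tested. Which lists were present differed too. Replicate 3 alone gave 53108 of the 69392 regions of 1 list. Replicates 2 and 3 gave 8049 of the 11276 regions of 2 lists. Redrawn without NIN replicate 3, the 2040 regions of replicates 1 and 2 had 59.9% over 2000 bp from genes. The number of lists and their identity were not separated. Among the members themselves, 64.2% of those up to 1000 bp wide and 80.4% of those over 2000 bp wide were over 2000 bp from genes.

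Within each NIN list, member peaks were set against the other peaks that overlapped no LSH1 peak. Over 2000 bp from genes were 69.8%, 69.2% and 70.0% of member peaks in replicates 1 to 3, and 46.4%, 57.3% and 58.5% of the others. The mean difference was 15.6 percentage points ± 6.71 (SD, n = 3). Inside coding genes it was -12.1 points ± 6.28 and in gene-end windows -6.06 points ± 2.70 (SD, n = 3 each). Each difference had 1 sign in 3 of 3 lists and a two-sided exact sign-flip p of 0.25, the smallest possible here. Members are the same regions in all 3 lists, so the near-equal member shares do not come from independent draws of regions.

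List 3 enters these sizes. With regions redrawn without NIN replicate 3, the differences were 6.76 points for the share far from genes, -5.57 points inside genes and -1.07 points in gene-end windows, and the last had opposite signs in the 2 remaining lists (two-sided exact sign-flip p = 1.00). Against peaks in exactly 2 NIN lists the differences were 6.36, -3.88 and -3.01 points. Absence of LSH1 is part of the rule, and its part in these differences was not tested. In LSH1-only regions of all 4 LSH1 lists, 32.2% of midpoints were over 2000 bp from genes. The position of other LSH1 peaks is not given. In the 343 regions of 3 NIN lists that did meet an LSH1 peak, 62.1% were over 2000 bp from genes and 22.7% were in gene-end windows.

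**Figure D4:**
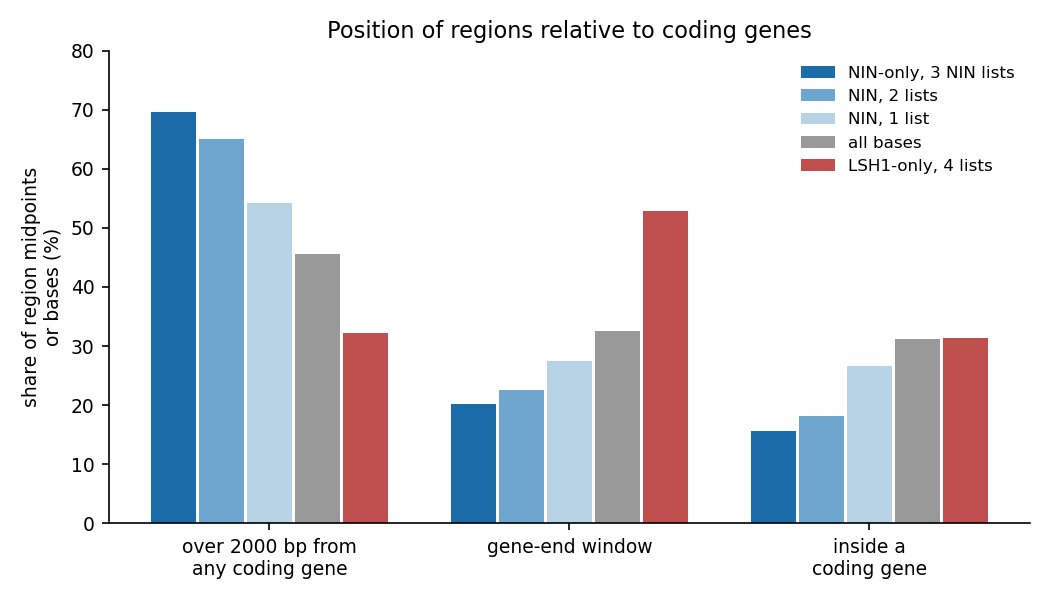
Share (%) of region midpoints over 2000 bp from any coding gene, in a gene-end window, and inside a coding gene. Blue bars are regions of 3, 2 and 1 NIN lists with no LSH1 peak, grey bars are all bases of the 7 chromosomes and red bars are LSH1-only regions of 4 lists. NIN-only regions reach 69.6% far from genes, against 45.7% of bases and 32.2% of LSH1-only regions.

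The regions with all 4 LSH1 lists and no NIN list, 3635 on the same chromosomes, were placed differently. Of their peaks, 31.6% ± 0.108 (SD, n = 4) were over 2000 bp from genes, against 69.7% ± 0.411 of NIN-only peaks (SD, n = 3). In gene-end windows were 53.1% ± 0.388 and 20.5% ± 0.631, and inside coding genes 31.9% ± 0.468 and 15.4% ± 0.374 (SD, n = 4 and 3). For each of these 3 differences the exact permutation test, two-sided, gave p = 0.0286, the minimum over 35 splits of 7 lists (Benjamini-Hochberg adjusted over 5 measures, 0.0357). Without NIN replicate 3 the difference inside coding genes was -10.8 points, against -16.5 with it. The lists of a protein hold the same regions by construction, and each set excludes peaks of the other protein. The spread between lists is therefore that of peak borders, and the test says nothing about how other regions would have been drawn. For these 3 shares, any difference between the sets beyond that small spread gives the minimum p. The p-values therefore add nothing to the shares themselves. Peak width did not pass the test (medians averaging 493 bp ± 343 and 535 bp ± 93.3; exact permutation p = 0.857). Without NIN replicate 3 the width difference was -245 bp, against -41.6 bp with it. Percentile place is not compared between lists of different lengths as a change; its mean medians were 37.5% in NIN-only and 17.1% in LSH1-only peaks.

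Along the chromosomes, members were most frequent where genes were fewer. The 378 whole bins of 1 Mb were ranked by their number of coding genes and divided into 5 equal parts. From the gene-poorest to the gene-richest part, members numbered 4.84, 6.4, 4.17, 2.27 and 1.36 per Mb. LSH1-only regions numbered 1.57, 4.67, 10.5, 13.8 and 16.9 per Mb. The second part, with 55 to 76 coding genes per bin, held 33.4% of members and was above the gene-poorest part, with 6 to 55. The lists as a whole shared part of this. From the gene-poorest to the gene-richest part, NIN replicate 3 had 265, 205, 177, 161 and 153 peaks per Mb and replicate 2 had 76.2, 95.2, 68.6, 47.1 and 38 peaks per Mb. Replicate 1 had 24.3, 41, 38.3, 30.9 and 28.2 peaks per Mb, with little difference between the ends. Over the bins, the number of members and of coding genes had a Spearman rho of -0.45, and rho was negative on each of the 7 chromosomes, from -0.61 on chromosome 4 to -0.28 on chromosome 2. It was -0.31 for regions redrawn without NIN replicate 3, with 5.33, 8.64, 6.42, 3.75 and 2.71 regions per Mb in the 5 parts. For LSH1-only regions it was 0.79. For all peaks of NIN replicates 1, 2 and 3 it was -0.05, -0.49 and -0.62, so a negative rho was not particular to members. Bins are neighbours on a chromosome and are not independent.

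**Figure D5:**
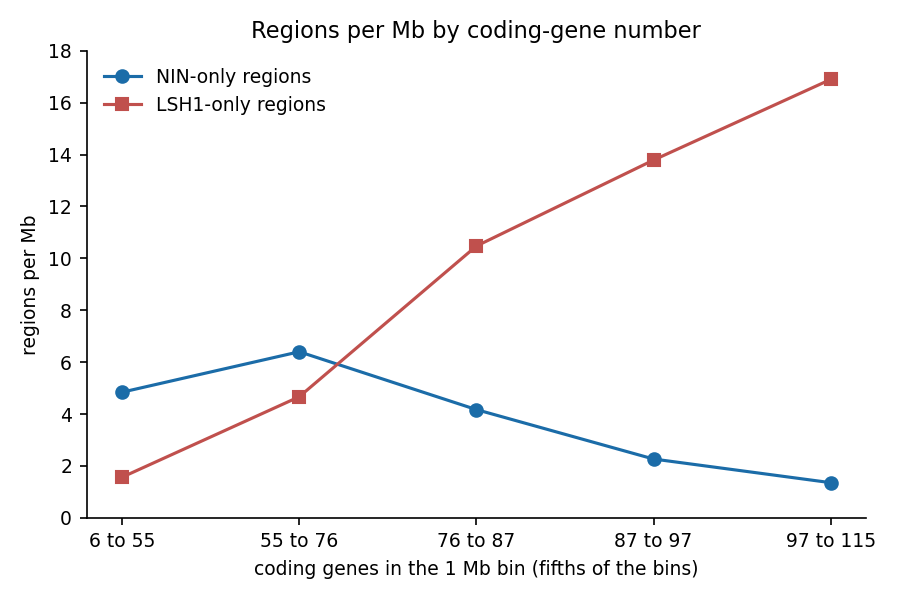
Regions per Mb (vertical axis) in 5 equal parts of the 1 Mb bins, ordered by their number of coding genes (horizontal axis). NIN-only regions (blue) peak at 6.4 per Mb in the second part and reach 1.36 in the gene-richest, while LSH1-only regions (red) run from 1.57 to 16.9.

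The NIN lists were not alike in this. The 151 gene-poor bins of the lowest 40%, with at most 76 coding genes, held 26.8% of the genes, 40.1%, 52.7% and 48.9% of the peaks of lists 1 to 3, 57.6% of the regions in exactly 2 NIN lists and 59.0% of the members. The members were thus close to the 2-list regions in this share. By peaks, 59.9%, 61.2% and 59.2% of member peaks lay there, against 40.3%, 54.4% and 51.9% of the other peaks without LSH1. The mean difference was 11.2 points ± 7.30 (SD, n = 3; two-sided exact sign-flip p = 0.25). Against peaks in exactly 2 NIN lists it was 4.57 points. With regions redrawn it was 3.96 points without NIN replicate 3 and 7.05 points without NIN replicate 2, and in both cases the 2 remaining lists differed in sign (exact sign-flip p = 1.00 each). This measure was added after the values had been seen.

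Members were spread over all 7 chromosomes. Chromosome 4 held the most, 305 (21.1%, with 16.9% of the length), and chromosome 3 the fewest, 152 (10.5%, with 15.4% of the length). Per Mb these were 4.71 and 2.58, and the others ran from 3.4 on chromosome 1 to 4.28 on chromosome 5. The lists themselves leaned the same way, with 18.4%, 17.7% and 18.2% of peaks of lists 1 to 3 on chromosome 4 and 12.8%, 11.8% and 11.6% on chromosome 3. Without NIN replicate 3 the redrawn regions had 19.1% on chromosome 4 and 11.2% on chromosome 3. Size and place varied little between chromosomes, with median widths of 1014 to 1108 bp and median mean places of 37.5 to 41.9%.

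At a finer scale, 54.7% of members were alone in their window of 100 kb. The median gap to the next member was 119 kb, where even spacing would give 265 kb, and 151 of 1438 gaps (10.5%) were under 10000 bp. Randomly placed regions would also have a median gap below the even spacing, so these values do not measure clustering, which was not tested. Of 3835 windows of 100 kb, 791 held 1 member and 169 held 2, while 3 windows held 6. The first of these, on chromosome 3 from 7600001 to 7700000, had its 6 members between 7610073 and 7634259, and 3 of them overlapped a coding gene. The second, on chromosome 4 from 24000001 to 24100000, had 1 coding gene, and its members were 3494 to 24977 bp from the nearest gene. The third, on chromosome 5 from 38800001 to 38900000, had 7 coding genes and 3 members that overlapped one. On chromosome 4 between 25641048 and 25671877 stood the seventh-ranked member, the second widest and, between them, a region of 3779 bp (25657832 to 25661610) that overlapped LOC120579953.

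Of 29274 coding genes, 318 (1.09%) had the midpoint of a member in the gene-end window. With a window of 1000 bp outside the gene there were 164 (0.56%). With regions redrawn without 1 NIN list the number was 1967 without replicate 1, 969 without replicate 2 and 554 without replicate 3. For 65 of the 318 a member midpoint lay inside the gene and for 253 outside. LSH1-only regions stood in the window of 2079 genes (7.1%). Each set leaves out regions with a peak of the other protein, which limits how often a gene can have both. An LSH1-only region stood at 0.943% of the NIN-only genes, next to 7.1% of all coding genes. A member stood at 0.144% of the LSH1-only genes, next to 1.09% of all coding genes. This overlap was not tested and comes to 3 genes. They were LOC11412439 on chromosome 1, with 9335 bp between its member and its LSH1 region, LOC11443684 on chromosome 4 (519 bp) and LOC11430884 on chromosome 8 (2255 bp). No gene had over 2 members, and 3 had 2, which were LOC112420890, LOC11443990 and LOC112420759.

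The 10 genes with the best-placed members had single members apart from LOC112420890. The first was LOC120579669 on chromosome 3, with a member at 7631168 to 7632781 that lay 6 bp outside it. This member overlapped the neighbouring gene LOC112420890, where its midpoint was too deep inside the gene to count in the gene-end window. Its places were 2.95%, 6.37% and 0.0368% of lists 1 to 3, low in all of them. LOC112420890 itself, in the dense window of chromosome 3, had in its gene-end window a member with its midpoint inside the gene (7628490 to 7630500; places 10.9%, 6.92% and 0.919%) and another just outside (7632997 to 7634259; 43.0%, 17.7% and 93.1%) that overlapped LOC120579669. LOC11412439 had a member 1651 bp away on chromosome 1 (42403118 to 42403624) at 3.96%, 6.30% and 4.09%, the most even places of these genes.

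Members had their midpoint inside LOC11419346 (chromosome 2, 30207739 to 30209620, mean place 5.95%) and inside LOC11405815 (chromosome 7, 30087084 to 30088248, 7.82%). The latter was also 1091 bp from LOC11406309. Regions touched LOC11425847 (chromosome 5, 27016007 to 27017425, 8.12%) and LOC120579953 (chromosome 4, 25657832 to 25661610, 8.39%) with their midpoint outside the gene. LOC25497788 (chromosome 7, 10276092 to 10276731, 6.58%) and LOC11444030 (chromosome 8, 11407031 to 11407405, 8.25%) had the nearer edge of their member 1340 and 1365 bp away.

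Too few named genes had a member for their share to be compared with that of all coding genes. The table gives a name to 77 coding genes, 74 of them on the 7 chromosomes, and 1 of these 74 (1.35%) had a member in the gene-end window, next to 1.09% of all coding genes. This gene was RAM2 (LOC11425164), a glycerol-3-phosphate acyltransferase needed for colonisation by arbuscular mycorrhizal fungi. Its member, on chromosome 1 at 19179506 to 19181458, had its midpoint inside the gene and was 1953 bp wide. It stood at 35.0%, 78.5% and 2.67% of lists 1 to 3, so it was early only in replicate 3. RAM2 had no region in its window once NIN replicate 3 was left out. RAM2 was the 1 gene with a member among 5 matched mycorrhiza genes.

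Of 57 nodulation names searched, 16 were matched in the gene table, 14 of them on these chromosomes. None of the 14 was listed under the name of an NF-Y subunit, LBD16 or a CLE peptide. Genes without a match were not examined, so what follows does not cover them. None of the 14 had a member in its gene-end window. Nor had any a member within the gene or 3000 bp of it, where 2.29% of all coding genes had one. At 1.09% a list of 14 genes would hold under 1 such gene, so the count of 0 is near the background. The nearest member to any of them was 26.0 kb from CCaMK (DMI3), the calcium- and calmodulin-dependent kinase of symbiotic signalling, and the median was 100.1 kb, next to 138 kb for all coding genes. The gene for ERN1, a transcription factor of infection, (ERN in the table) was 35249 bp from its nearest member, NOOT2, a co-regulator of nodule identity, 71554 bp, NFP, a receptor of Nod factors, 84837 bp, ENOD11, an early nodulin, 89602 bp, and NSP1, a GRAS transcription factor, 116363 bp. NOOT1, the paralogue of NOOT2, was 1484930 bp away. These distances are to members only, and peaks outside the rule came nearer. Peaks of 1 NIN list lay within 2000 bp of CCaMK, ERN1 and NOOT1. For NOOT2 and ENOD11 it was 2 NIN lists, and for NFP and NSP1 it was 0. The same count over all coding genes is not given, so these counts have no background here.

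The other lists had 0 genes in the window, with 11 genes of nodulin or leghemoglobin type names, 8 lectins, 7 lignin and saponin genes and 4 hormone genes matched. The 11 were matched by the beginning of the name, so they also include NOOT1, NOOT2 and NGR. Some of them, such as ENOD11 and the NOOT genes, were already among the nodulation genes. Of nitrate genes none was matched by name. Some members came within 10 kb of a named gene, as for 8 of 74 named genes (10.8%) and 6.93% of all coding genes. The lectin genes Lec7 and Lec11 on chromosome 8 were 2018 and 3302 bp from members (30811754 to 30812696 and 30787858 to 30788209). The cinnamyl alcohol dehydrogenase genes CAD2 and CAD1, of lignin synthesis, were 3571 and 4910 bp from members of 4125 and 3203 bp. LAX4, an auxin influx carrier, was 5539 bp from a member at 2.21%, 21.0% and 5.58% of lists 1 to 3 (chromosome 4, 4787702 to 4789190). The leghemoglobin LB1 was 8471 bp and D27, an enzyme of strigolactone synthesis, 9793 bp from the nearest member.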

How the data were processed

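The 7 lists give peaks of 1 immunoprecipitation and its control each, called per replicate and not on pooled samples, per the labels. Per the submitters' processing notes the authors used Bowtie2, Picard, MACS2 and ChIPseeker. The list names give narrow peaks at a q cutoff of 0.05. No version, further setting or build is given in the sources used here. Columns are a sequence name beginning with MtrunA17, both peak borders and a running number, so peak heights and per-peak q-values were not used. Region coordinates are those of the deposited lists, counted from 1. Gene names and distances came from the RefSeq table of MtrunA17r5.0-ANR, which has no strand, product or exon structure. LSH1-only midpoints lay in gene-end windows in 52.9% of cases, against 32.5% of bases, and the coordinate systems were used together on that basis. No genome sequence was used, and motifs planned in promoters were not searched.

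Overlaps, widths and distances were computed with Python 3.11.15, pandas 2.3.3 and numpy 2.4.6, after the code had been tested on simulated peaks. Sign-flip and permutation tests over lists were exact, with Benjamini-Hochberg adjustment over 5 measures. Shares over regions carry no p-value, since regions are not replicates. Named are the 10 best-placed members and genes, genes of 7 lists matched by symbol or synonym, genes with 2 or more members, the 5 widest members, the 3 densest windows of 100 kb and the members and regions nearest the limits of the rule. Members and gene lists were chosen with earlier results of these data known. The genes with both kinds of region, the named genes near members that lie outside the window, the member near an rRNA gene and the members with the longest common stretch were singled out after their values were seen. The gene density measure and the alternative in which lists 1 and 2 share a base were added after seeing the data. Alternatives were other overlaps, gene windows, distances from LSH1 peaks, list lengths, width limits and comparators, and each list left out.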

Additional observations from a re-analysis of the deposited data

How the results depend on the processing

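Signs of the mean differences held under every alternative run, except that the width difference between NIN-only and LSH1-only peaks was 7 bp without LSH1 replicate 2 (range with 1 list left out, -245 to 7 bp). Single lists could differ in sign, as for gene-end windows (without NIN replicate 3, and against peaks in exactly 2 NIN lists) and for gene-poor bins (without NIN replicate 2 or 3). The number of regions was 457 with the first 50% of each list, 412 with the first 14000 peaks of each NIN list, and 1496 to 9483 with 1 list left out. It was 1070 with a base common to all 3 NIN lists, 1128 with replicates 1 and 2 sharing a base (an alternative chosen after seeing the data), 1196 with no peak over 2000 bp, 1297 when merging asked for 50% of the smaller peak and 1361 with no LSH1 peak within 500 bp. Genes with a member numbered 164 with windows of 1000 bp, 669 with the gene body plus 3000 bp on either side, 492 when any overlap with the window was counted, and 327 to 1967 with 1 list left out, an alternative added after seeing the data. With 1 list left out, NIN-only minus LSH1-only differences ran from -33.0 to -27.6 points in gene-end windows, -17.2 to -10.8 inside genes, 28.8 to 38.2 far from genes and 16.6 to 27.4 in place, which is not read as a change because the lists differ in length. None passes 0.05 there, since 15 or 20 splits cannot reach it. Replicate numbers are not said to pair NIN and LSH1 samples. Same-numbered lists overlapped in 8.08% of the smaller list's peaks (3 pairs) and others in 7.80% (9 pairs). With lists 1 to 3 paired as a replicate block the differences were -32.5, -16.4, 38.0 and 21.2 points, each with an exact sign-flip p of 0.25, the smallest possible. The unknown depth of the lists limits all counts.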

Other observations

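The longest stretches without a member lay in gene-rich parts. They were 5236 kb on chromosome 3 (37984624 to 43220884), 4015 kb on chromosome 7 (40718881 to 44734096) and 3881 kb on chromosome 4 (43552872 to 47433608), with 99.1, 92.9 and 106 coding genes per Mb. NIN peaks were present there, with 157, 191 and 751 peaks of lists 1 to 3 in the first stretch, which also held 79 LSH1-only regions. Of the 378 bins of 1 Mb, 59 held no member and had a median of 96 coding genes, while 23 held 11 or more members, 21.4% of those counted in bins, and had a median of 57. The latter had medians of 54, 138 and 256 peaks of NIN lists 1 to 3 per bin, against 22, 30 and 146 in the bins without a member. These stretches and bins were picked after their values were seen.

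Midpoints of 15 members (1.04%) lay in long non-coding RNA genes, which cover 1.38% of the bases, and of 17 (1.18%) in pseudogenes, which cover 1.28%. Whole members touched snoRNA genes in 5 cases (0.346%, where such genes cover 0.0230% of bases) and snRNA genes in 3, with no midpoint inside either, and no member touched an rRNA or tRNA gene. Members are far wider than these genes, so an overlap is not comparable with a share of bases.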
